A study of Mus musculus with 20 samples.

Results

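Fibroadipogenic progenitors were compared between mice carrying KPC tumours and sham-operated control mice at day 14, the earliest of the 3 times in a study of these cells in experimental pancreatic cancer cachexia. The comparison takes every library labelled day 14, which is 7 of the 20 libraries, 4 from KPC mice and 3 from controls. KPC mice had 2 M cells of the KPCY line, a mouse pancreatic tumour line, injected in 50 µL into the pancreas, and control mice were operated on without tumour cells. All mice were male C57BL/6J, and no source used here gives their age. The cells came from hindlimb muscle and were used freshly sorted, as live nucleated cells that carried SCA-1 and lacked CD31, CD45 and α7-integrin. The labels call the libraries of a group biological replicates, and a single tumour line stands for the disease.

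Fibroadipogenic progenitors are the connective tissue cells between muscle fibres. They make much of the muscle's matrix, can turn into fibroblasts or adipocytes, and after injury send out chemokines and growth factors that act on immune cells and on muscle stem cells. They are known to occur in more than 1 state, among them a state with high Dpp4 and Pi16 and a state with high Cxcl14 and Smoc2. Cachexia, the wasting that accompanies pancreatic cancer, brings muscle loss, and these cells are studied as a possible participant.

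The 4 KPC libraries held 12.9 to 24.9 M counts and the 3 control libraries 14.2 to 21.0 M. Between 14367 and 15738 genes had a count in each KPC library and between 15177 and 15239 in each control library. The lowest correlation between libraries of a group was 0.964, and KPC replicate 3 was the shallowest library. On the principal component that took the most variance, at 33.8%, the KPC libraries lay between 2.13 and 40.9 and the controls between -39.7 and -20.6. The number that starts each library code was shared by all controls and by no KPC library, so anything that this number stands for cannot be told apart from the tumour.

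Of 13344 genes tested, 149 differed between KPC and control progenitors at an adjusted p under 0.05 (edgeR quasi-likelihood test, Benjamini-Hochberg over all genes), which is 1.12% of the genes. There were 91 genes higher in KPC (0.682%) and 58 lower (0.435%), and a gene past this threshold is spoken of below as called. In 59 of the higher and 16 of the lower genes the log2 fold change was over 1 in size. The median log2 fold change over all genes was 0.01, and 51.2% of genes had a positive value. The 2 groups did not overlap in any of the 149 genes, whereas 13.3% of all genes showed no overlap. KPC replicate 4, the KPC library whose code starts with another number than the other 3, was the KPC library nearest to the controls in 25 of the 91 higher and 23 of the 58 lower genes.

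Single libraries moved the number of calls. It was 62, 41, 92 and 255 without KPC replicates 1, 2, 3 and 4, and 145, 188 and 40 without control replicates 1, 2 and 3. In all 7 of these fits, 26 genes were called, 15 higher and 11 lower. Of the 40 called genes chosen by rule, 23 were called in all 7. The other 17 were called in 1 to 6 of them, and they include Ccl7, Cldn5, Nr1d2, Cx3cr1, Ifi27l2a, Dpp4, Pdgfb, Chrdl1, Dnajb4, Figf, Hic1, Itga7, Notch3, Per3, Birc3 and Col12a1. Among the called genes named below outside this rule, Selp alone was called in all 7.

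**Figure D1:**
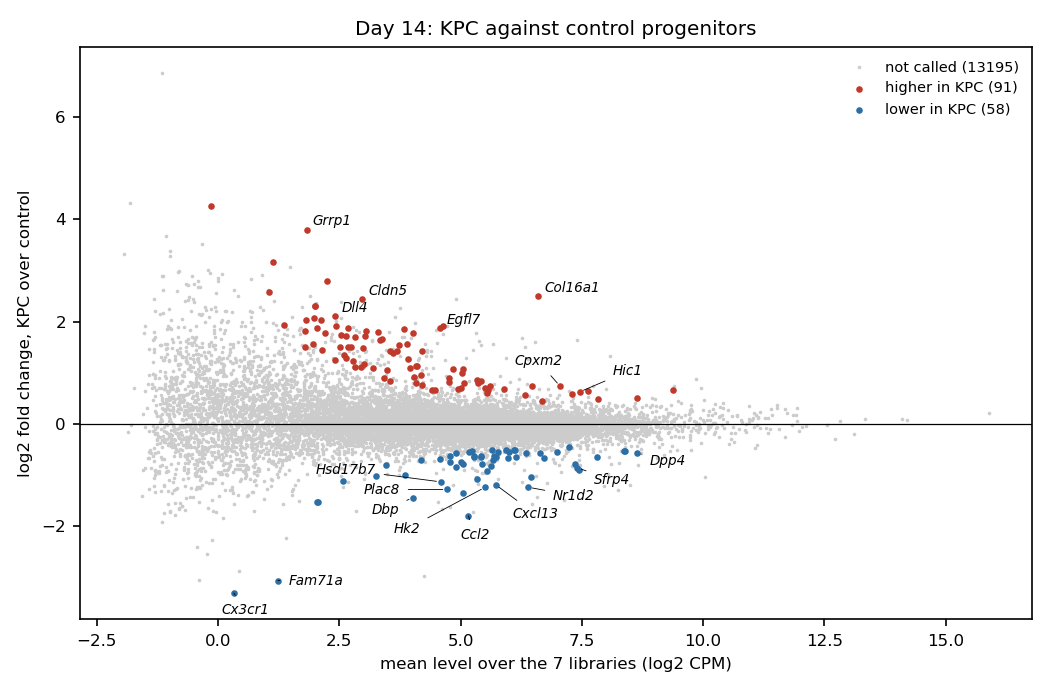
Log2 fold change of KPC over control progenitors at day 14 (vertical axis) against the mean level over the 7 libraries in log2 CPM (horizontal axis). Each point is a gene, with the 91 called higher in red, the 58 called lower in blue and the rest in grey. Col16a1, with a log2 fold change of 2.51, lies apart from the other red points of its level, and Ccl2, Hk2, Cxcl13, Dbp and Nr1d2 lie at the lower edge.

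The sort was checked on the marker it selects for and on a usual marker of these cells. Ly6a, which encodes SCA-1, averaged 909.7 ± 77.9 CPM (counts per M counts of a library) in KPC progenitors (SD, n = 4) and 1013 ± 105 CPM in controls (SD, n = 3). Pdgfra, the receptor by which these progenitors are usually recognised, averaged 1575 ± 105 CPM in KPC (SD, n = 4) and 1303 ± 84.8 CPM in controls (SD, n = 3). Neither was called (log2 fold changes of -0.15 and 0.27, adjusted p 0.5928 and 0.2428 by edgeR). The groups overlapped for Ly6a. For Pdgfra every KPC library was above every control, as in 7.52% of all genes. Both markers were high in every library of both groups.

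Genes for the 3 proteins that the sort selects against had higher means in KPC. Pecam1, which encodes CD31, was at 47.6, 78.8, 57.5 and 46.8 CPM in the 4 KPC replicates and at 25.2, 17.0 and 8.26 CPM in control replicates 1 to 3. These groups did not overlap, but the gene was not called (log2 1.77 ± 0.39 SE, adjusted p 0.10 by edgeR). Ptprc, which encodes CD45, had 0.609, 5.53, 3.40 and 1.94 CPM in KPC and 0.726, 1.03 and 0.107 CPM in controls, with the groups overlapping and no call (adjusted p 0.2092 by edgeR). Itga7, which encodes α7-integrin, had 7.17, 8.89, 13.9 and 5.46 CPM in KPC and 2.85, 3.37 and 1.87 CPM in controls, and it was called higher (log2 1.71 ± 0.34 SE, adjusted p 0.0327 by edgeR). Mettl7b, on the other strand, overlaps part of the Itga7 exons.

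Endothelial markers had higher values in KPC. Of 20 such markers, 3 were called, all higher (15%, against 0.682% of all genes). DESeq2 called 17 and limma-voom 8, against 600 and 102 of all 13344 genes. In 18 every KPC library was above every control, a state found in 7.52% of all genes. Their median log2 fold change was 1.63. The summed level of the list was 757, 1055, 898 and 829 CPM in KPC replicates 1 to 4, and 605, 578 and 456 CPM in control replicates 1 to 3. Tek, an angiopoietin receptor, was the 1 marker with a negative value (log2 -0.03), at 373 ± 41.7 CPM in KPC (SD, n = 4) and 381 ± 22.9 CPM in controls (SD, n = 3).

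The 3 called markers encode a claudin of endothelial tight junctions (Cldn5), a sialomucin of the vessel lumen (Podxl) and a secreted vascular factor (Egfl7). Cldn5 was at 8.71, 15.5, 5.80 and 18.0 CPM in KPC and at 2.76, 2.198 and 1.71 CPM in controls, and rose by a log2 fold change of 2.44 ± 0.39 SE (adjusted p 0.0156 by edgeR). Egfl7 was at 30.5, 48.5, 22.0 and 38.1 CPM in KPC and at 11.6, 9.55 and 7.52 CPM in controls, and rose by 1.87 ± 0.26 SE on the log2 scale (adjusted p 0.0073 by edgeR). Its exons overlap Agpat2 and the microRNA gene Mir126b on the other strand, and the microRNA gene Mir126a on the same strand. Podxl averaged 36.2 ± 10.3 CPM in KPC (SD, n = 4) and 9.58 ± 4.18 CPM in controls (SD, n = 3), with an adjusted p of 0.0436 by edgeR.

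Several of the 12 higher genes with the smallest p also belong to vessels by what is known of them. Dll4, a Notch ligand of arterial and sprouting endothelium, had 7.35, 7.65, 6.73 and 10.00 CPM in KPC and 1.40, 1.99 and 2.19 CPM in controls. It rose by 2.10 ± 0.28 SE on the log2 scale (adjusted p 0.0038 by edgeR), and Gm14207, on the other strand, overlaps part of its exons. Adgrl4, an adhesion receptor of endothelial cells, averaged 20.6 ± 4.55 CPM in KPC (SD, n = 4) and 5.72 ± 1.91 CPM in controls (SD, n = 3). Arhgef15, an exchange factor for small GTPases in endothelium, averaged 14.1 ± 3.34 CPM in KPC (SD, n = 4) and 4.06 ± 1.00 CPM in controls (SD, n = 3).

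The rise of Adgrl4 was 1.85 ± 0.25 SE and that of Arhgef15 was 1.79 ± 0.24 SE on the log2 scale (adjusted p 0.0038 for each by edgeR). Spns2, the transporter that releases sphingosine 1-phosphate from endothelial cells, averaged 6.07 ± 1.47 CPM in KPC (SD, n = 4) and 1.23 ± 0.07 CPM in controls (SD, n = 3), and its rise was 2.29 ± 0.32 SE on the log2 scale (adjusted p 0.0046 by edgeR). Its exons overlap those of Mybbp1a on the other strand. For all 4 of these genes the lowest KPC library was above the highest control.

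Further genes of this kind were called higher and are named after their values were seen. Selp, the P-selectin of activated endothelium and platelets, averaged 7.50 ± 1.30 CPM in KPC (SD, n = 4) and 1.08 ± 0.76 CPM in controls (SD, n = 3). Icam2, an adhesion molecule, had a log2 fold change of 2.07, and Fli1, an ETS transcription factor, of 1.12. Ccm2l, Myct1, She and Pcdh12, which are also known from endothelium, had log2 fold changes of 1.5, 2.02, 2.03 and 1.45. Selp was called in all 7 fits that leave out 1 library, and the others named here were not. All were picked from the genes called higher. Procr and Ackr1, which endothelium is also known to express, were called lower.

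Markers of other cells that muscle holds were also at higher values in KPC, with few calls. The 13 mural markers, genes of pericytes and smooth muscle, had a median log2 fold change of 0.96, and all 13 were positive. Of these, 1 was called (7.69%, against 1.12% of all genes). Their sum ran from 317 to 454 CPM in KPC and from 164 to 267 CPM in controls. The called mural gene was Notch3, the Notch receptor of mural cells, at 17.2, 27.1, 29.5 and 17.7 CPM in KPC and at 12.8, 10.6 and 11.8 CPM in controls (log2 0.96 ± 0.21 SE, adjusted p 0.0418 by edgeR). Glial markers summed to between 711 and 895 CPM in KPC and between 631 and 694 CPM in controls. Of 12 tested, 0 were called by edgeR, 3 by DESeq2 and 0 by limma-voom, and 8 had an unadjusted p under 0.05. Over all 13344 genes edgeR called 149, DESeq2 600 and limma-voom 102, and 1904 had an unadjusted p under 0.05.

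Blood cell markers were low in both groups. Neutrophil markers summed to between 5.46 and 10.8 CPM in KPC and between 0.206 and 2.85 CPM in controls, and macrophage and monocyte markers to between 30.9 and 70.4 CPM in KPC and between 22.3 and 30.4 CPM in controls. Of 9 neutrophil genes matched, 3 passed the filter on low counts, which a gene can pass through the KPC libraries alone. Csf3r had 18, 16, 6 and 34 counts in KPC and 6, 0 and 2 in controls. Ccr2, of the monocyte genes, had 19, 21, 9 and 35 counts in KPC and 1, 3 and 4 in controls. All 3 neutrophil genes tested were positive (median log2 fold change 2.78), as were 16 of 18 macrophage and monocyte genes (median 1.08). The signs of such low genes are therefore a description and not a test. By edgeR 0 and 1 genes of the 2 lists were called, by DESeq2 2 and 5 and by limma-voom 0 and 1. An unadjusted p under 0.05 was found for 3 and 7. The edgeR call was opposite in sign to most of its list. It was Cx3cr1, the fractalkine receptor, which fell, with 0.468, 0.258, 0 and 0.243 CPM in KPC and 3.39, 2.13 and 2.29 CPM in controls (log2 -3.31 ± 0.64 SE, adjusted p 0.0301 by edgeR). Lymphocyte markers summed to between 0.728 and 7.66 CPM in KPC and between 0 and 0.774 CPM in controls. The globin genes Hba-a1, Hba-a2, Hbb-bs and Hbb-bt were at 0 counts in all 7 libraries.

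The sums of the remaining marker lists overlapped between the groups. Myofibre markers summed to between 194 and 441 CPM in KPC and between 84.3 and 209 CPM in controls, with KPC replicate 3 the highest. Satellite cell markers ran from 307 to 385 CPM in KPC and from 298 to 391 CPM in controls. Tenocyte markers ran from 2197 to 3099.5 CPM in KPC and from 2086 to 3227 CPM in controls. Egr1, an immediate-early factor with 1314 ± 565 CPM in KPC (SD, n = 4) and 1729 ± 538 CPM in controls (SD, n = 3), makes up much of the tenocyte sum. The members differ from their sum, since 10 of 11 tenocyte markers were positive with a median log2 fold change of 1.33. In 5 (45.5%, against 7.52% of all genes) every KPC library was above every control. Fmod, a proteoglycan of tendon, averaged 367.5 ± 177 CPM in KPC (SD, n = 4) and 146 ± 9.87 CPM in controls (SD, n = 3). By edgeR 0 of the 11 were called, by DESeq2 7 and by limma-voom 0, and 8 had an unadjusted p under 0.05. All 15 myofibre markers were positive too (median 1.16), with 0 called by edgeR, 1 by DESeq2, 0 by limma-voom and 3 at an unadjusted p under 0.05. Epithelial and tumour markers ran from 7.66 to 31.4 CPM in KPC and from 11.1 to 17.7 CPM in controls, and erythroid markers from 2.67 to 8.79 CPM in KPC and from 1.99 to 2.76 CPM in controls. In these bulk libraries, more cells of a type and more RNA per cell cannot be told apart, and the same holds for fewer cells and less RNA.

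With the mean log2 level of the endothelial markers added to the fit, 2 genes were called, Col16a1 higher and Ccl2 lower. That mean was 4.39 to 5.07 in KPC and 1.91 to 3.63 in controls, so it does not overlap between the groups, and it cannot be told apart from the tumour in such a fit. The part that endothelial or other cells play in the genes below was not tested.

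**Figure D2:**
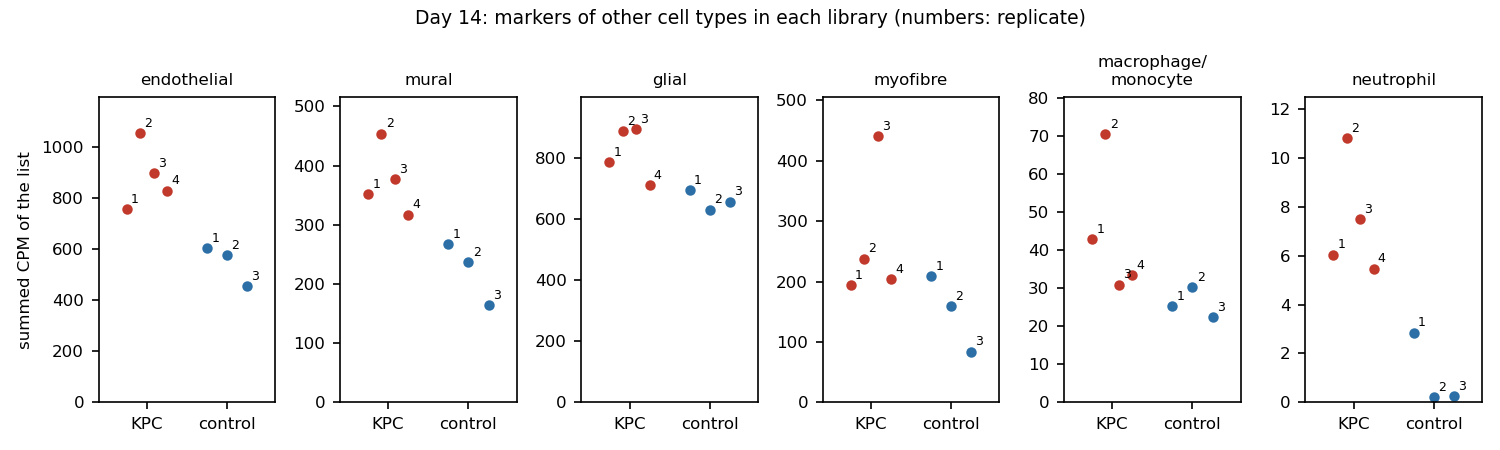
Summed CPM of the markers of 6 other cell types (vertical axes, each from 0) in each day 14 library, with KPC in red on the left and control in blue on the right of each panel. Points are single libraries and the small numbers give the replicate. The endothelial sums run from 757 to 1055 CPM in KPC and from 456 to 605 CPM in controls, and KPC replicate 2 has the highest endothelial, mural, macrophage and neutrophil sums.

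Among matrix genes a single collagen stood out. Col16a1 encodes the chain of collagen XVI, a collagen that associates with fibrils and has interrupted triple helices, and it lies at chr4:130047840-130099283 (GRCm38). It was at 128, 127, 155 and 191 CPM in KPC progenitors and at 24.7, 29.5 and 25.3 CPM in control progenitors. The lowest KPC library was thus far above the highest control. The mean was 150.05 ± 30.2 CPM in KPC (SD, n = 4) and 26.5 ± 2.61 CPM in controls (SD, n = 3). The rise was 2.51 ± 0.16 SE on the log2 scale. Its adjusted p of 3.0e-06 (edgeR) was the smallest of the 13344 genes.

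The main fibril collagens were not called. Col1a1, a chain of collagen I, averaged 7324 ± 1123 CPM in KPC (SD, n = 4) and 7077 ± 1007 CPM in controls (SD, n = 3), with overlapping groups and a log2 fold change of 0.05 (adjusted p 0.9243 by edgeR). Col3a1, the chain of collagen III, had a log2 fold change of 0.08 and was not called. Of 38 collagen chains tested, 2 were called (5.26%, against 1.12% of all genes), both higher, and the median was 0.31 with 32 positive. The other called chain was Col12a1, of a fibril-associated collagen, at 76.9, 65.2, 86.9 and 56.9 CPM in KPC and 46.5, 42.8 and 43.6 CPM in controls (log2 0.69 ± 0.14 SE, adjusted p 0.0334 by edgeR).

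The other matrix lists held 0 calls by edgeR. The 42 non-collagen matrix proteins had a median of 0.07 and the 31 matrix enzymes and inhibitors a median of -0.01, near the 0.01 of all genes. Among these, 13 and 9 had an unadjusted p under 0.05, DESeq2 called 6 and 2, and limma-voom 0 in each. Cpxm2, a secreted protein of the carboxypeptidase family outside these lists, was at 162, 165, 148 and 166 CPM in KPC and at 102, 93.9 and 93.3 CPM in controls. It rose by 0.74 ± 0.10 SE on the log2 scale (adjusted p 0.0038 by edgeR), with narrow spreads of 8.06 CPM in KPC and 4.63 CPM in controls.

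Hic1 was called higher and Dpp4 lower. Hic1, a transcriptional repressor that marks mesenchymal progenitors of muscle, was at 210.1, 218, 219 and 180.3 CPM in KPC and at 124, 159 and 119 CPM in controls. It rose by 0.63 ± 0.12 SE on the log2 scale (adjusted p 0.0327 by edgeR). It was the single call among 18 genes of progenitor identity (5.56%, against 1.12% of all genes). Dpp4, the peptidase that marks the Dpp4 and Pi16 state, was at 304, 338, 322 and 356 CPM in KPC and at 435, 529 and 505 CPM in controls. It fell by 0.57 ± 0.11 SE on the log2 scale (log2 -0.57, adjusted p 0.0299 by edgeR), and no library of one group reached the other.

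The 2 states leaned in opposite directions in sign, with that 1 call (4.76% of the Dpp4 and Pi16 list, against 1.12% of all genes). All 21 genes of the Dpp4 and Pi16 list had negative values, with a median of -0.32, and in 7 of them every KPC library was below every control, as in 5.83% of all genes. Pi16, a secreted peptidase inhibitor, averaged 1843 ± 205 CPM in KPC (SD, n = 4) and 2559 ± 425 CPM in controls (SD, n = 3) and was not called (log2 -0.47, adjusted p 0.1012 by edgeR). Of 15 genes of the Cxcl14 and Smoc2 list, 13 were positive, with a median of 0.37. By edgeR 0 were called, by DESeq2 5 and by limma-voom 0, with 9 at an unadjusted p under 0.05. In 4 (26.7%, against 7.52% of all genes) every KPC library was above every control. Cxcl14, a chemokine, averaged 1524 ± 232 CPM in KPC (SD, n = 4) and 1147 ± 48.4 CPM in controls (SD, n = 3). Smoc2, a matrix protein that binds calcium, averaged 3242 ± 396 CPM in KPC (SD, n = 4) and 2506 ± 97.2 CPM in controls (SD, n = 3).

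Wnt and Notch genes gave 4 calls among 36 (11.1%, against 1.12% of all genes). Dll4 and Notch3, given above with the vessel genes, were higher. Sfrp4, a secreted Wnt antagonist, was at 114, 146, 119 and 127 CPM in KPC and at 222, 198 and 266 CPM in controls. It fell by 0.86 ± 0.12 SE on the log2 scale (log2 -0.86, adjusted p 0.0050 by edgeR). Its relative Sfrp2, named after its values were seen, averaged 127 ± 18.3 CPM in KPC (SD, n = 4) and 216 ± 42.0 CPM in controls (SD, n = 3) and also fell (log2 -0.78 ± 0.15 SE, adjusted p 0.0301 by edgeR). Dact3, an intracellular antagonist of Wnt signalling, was at 49.4, 56.9, 57.3 and 47.3 CPM in KPC and at 30.1, 30.8 and 27.4 CPM in controls, and rose by 0.84 ± 0.12 SE (adjusted p 0.0046 by edgeR).

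The list of FGF, HGF and neurotrophic factors also holds PDGF and VEGF genes. It had 3 calls among 28 genes (10.7%, against 1.12% of all genes), 2 higher and 1 lower. The median log2 fold change was 0.23. Pdgfb, the factor by which endothelial cells recruit mural cells, was at 10.9, 13.2, 9.44 and 8.74 CPM in KPC and at 5.47, 4.95 and 3.57 CPM in controls (log2 1.18 ± 0.23 SE, adjusted p 0.0327 by edgeR). Figf, the older symbol of Vegfd, a growth factor for lymphatic vessels, was at 36.4, 39.2, 38.7 and 45.9 CPM in KPC and at 51.8, 76.4 and 67.2 CPM in controls (log2 -0.70 ± 0.14 SE, adjusted p 0.0327 by edgeR). Edn1, which encodes the vasoconstrictor endothelin 1, fell to 21.3, 36.0, 29.0 and 23.2 CPM in KPC, against 67.8, 49.5 and 55.5 CPM in controls (log2 -1.08 ± 0.17 SE, adjusted p 0.0143 by edgeR). Edn1 is outside this list. Endothelial cells are a known source of it, and its direction was opposite to that of most endothelial markers. The part of such cells in its fall was not tested. Chrdl1, a BMP antagonist, averaged 56.8 ± 3.46 CPM in KPC (SD, n = 4) and 89.5 ± 21.7 CPM in controls (SD, n = 3). It fell (log2 -0.65, adjusted p 0.0390 by edgeR). It was the 1 called gene of 40 in the TGF-beta, activin and BMP list (2.5%, against 1.12% of all genes).

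**Figure D3:**
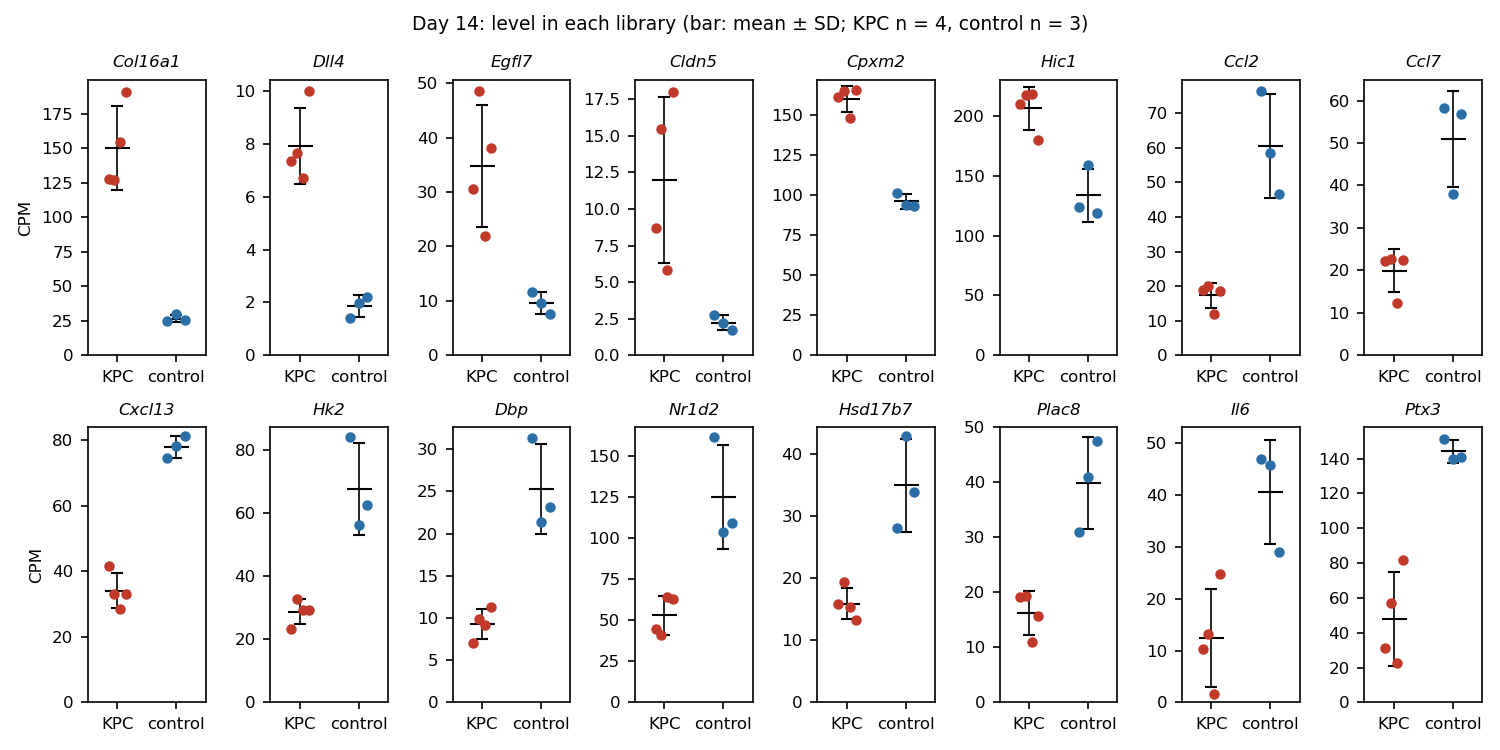
Level in CPM (vertical axes, each from 0) of 16 genes in each day 14 library, KPC in red on the left and control in blue on the right. Points are libraries, long bars are group means and whiskers are SD (KPC n = 4, control n = 3). No gene shown has overlapping groups, and the KPC values of Il6 and Ptx3 are the most scattered relative to their mean.

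The chemokine genes Cxcl13, Ccl2 and Ccl7 fell. Cxcl13, which attracts B cells, was at 41.6, 33.0, 28.6 and 33.1 CPM in KPC and at 74.4, 78.0 and 81.2 CPM in controls. It fell by 1.19 ± 0.12 SE on the log2 scale (log2 -1.19, adjusted p 0.0011 by edgeR), the smallest p of the genes lower in KPC. Ccl2, the main attractant of monocytes, was at 18.8, 20.01 and 18.5 CPM in KPC replicates 1, 2 and 4 and 11.9 CPM in replicate 3, against 76.4, 58.5 and 46.6 CPM in controls. The highest KPC library was below every control for each of these genes.

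Ccl2 fell by 1.80 ± 0.19 SE on the log2 scale (log2 -1.80, adjusted p 0.0020 by edgeR). Ccl7, another monocyte attractant, was at 22.2, 22.6, 12.4 and 22.5 CPM in KPC and at 58.2, 38.0 and 56.9 CPM in controls (log2 -1.35 ± 0.21 SE, adjusted p 0.0156 by edgeR). Ccl2 and Ccl7 are neighbours on chromosome 11, at chr11:82035571-82037453 and chr11:82045712-82047525 (GRCm38). Of 19 chemokine genes tested 3 were called (15.8%, against 1.12% of all genes), 8 were positive, and the list's median was -0.16. Cxcl12, the stromal attractant of blood stem cells, averaged 419.8 ± 40.9 CPM in KPC (SD, n = 4) and 338 ± 19.3 CPM in controls (SD, n = 3) and was not called.

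Il6 and Ptx3, inflammatory products that these progenitors are known to make, pointed the same way without a call. Il6, a cytokine, was at 10.2, 13.2, 1.70 and 24.7 CPM in KPC and at 47.0, 45.7 and 29.0 CPM in controls (log2 -1.67 ± 0.71 SE, adjusted p 0.3728 by edgeR). Ptx3, a soluble pentraxin of innate immunity, was at 31.2, 56.9, 22.4 and 82.0 CPM in KPC and at 152, 140.0 and 141 CPM in controls (log2 -1.57 ± 0.45 SE, adjusted p 0.2056 by edgeR). The groups did not overlap in either gene, but the KPC libraries differed widely among themselves, and Ptx3 was called when KPC replicate 4 was left out. The IL-6 and STAT3 list held 0 called genes of 27 by edgeR, 3 by DESeq2 and 1 by limma-voom, with 4 at an unadjusted p under 0.05 and a median of 0.07, and Socs3, the feedback inhibitor of that pathway, had a log2 fold change of 0.35.

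Of 24 genes of the NF-kappaB pathway 21 were negative, with a median of -0.31, and 1 was called (4.17%, against 1.12% of all genes). This was Birc3, an inhibitor of apoptosis, at 30.2, 32.5, 23.7 and 38.0 CPM in KPC and at 47.4, 46.8 and 51.9 CPM in controls (log2 -0.64 ± 0.14 SE, adjusted p 0.0476 by edgeR). Interferon genes had a median of 0.04, with 1 call among 40 (2.5%, against 1.12% of all genes). The called gene was Ifi27l2a, an interferon-induced gene, which fell (log2 -0.93, adjusted p 0.0327 by edgeR). It averaged 33.8 ± 8.45 CPM in KPC (SD, n = 4) and 64.2 ± 11.5 CPM in controls (SD, n = 3). The median over 23 complement genes was 0.29.

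Genes of the circadian clock were lower in KPC where they were called. Dbp, a clock-driven transcription factor that binds D-box sequences, was at 7.02, 9.93, 9.13 and 11.3 CPM in KPC and at 31.4, 21.4 and 23.2 CPM in controls (log2 -1.44 ± 0.19 SE, adjusted p 0.0038 by edgeR). The exons of Dbp overlap those of Sphk2 on the other strand. Nr1d2, a repressor of the clock loop, was at 44.6, 41.1, 64.1 and 62.8 CPM in KPC and at 162, 104 and 109.7 CPM in controls (log2 -1.24 ± 0.20 SE, adjusted p 0.0210 by edgeR). Per3, a period gene, was at 31.2, 27.9, 29.2 and 32.8 CPM in KPC and at 40.5, 49.2 and 43.2 CPM in controls (log2 -0.55 ± 0.12 SE, adjusted p 0.0418 by edgeR). In all 3 genes every KPC library was below every control.

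The promoters of Per3 and Dbp, called clock genes of which Dbp encodes a D-box factor, are shown from RefSeq (GRCm38.p6), from 250 bases before to 50 bases after the start of the gene and in the direction of transcription. Per3 is read from the minus strand at chr4:151044616-151044915 and holds 2 matches to the D-box TTATGNAA, in capitals. Dbp is read from the plus strand at chr7:45704997-45705296 and holds none, and its capitals mark 1 match to the STAT element TTCNNNGAA.
Per3: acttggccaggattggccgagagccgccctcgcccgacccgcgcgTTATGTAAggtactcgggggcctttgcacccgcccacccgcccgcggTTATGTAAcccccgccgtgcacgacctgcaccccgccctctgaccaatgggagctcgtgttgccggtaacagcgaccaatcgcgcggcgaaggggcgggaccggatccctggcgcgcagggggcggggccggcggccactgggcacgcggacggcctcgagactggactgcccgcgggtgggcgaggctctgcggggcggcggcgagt
Dbp: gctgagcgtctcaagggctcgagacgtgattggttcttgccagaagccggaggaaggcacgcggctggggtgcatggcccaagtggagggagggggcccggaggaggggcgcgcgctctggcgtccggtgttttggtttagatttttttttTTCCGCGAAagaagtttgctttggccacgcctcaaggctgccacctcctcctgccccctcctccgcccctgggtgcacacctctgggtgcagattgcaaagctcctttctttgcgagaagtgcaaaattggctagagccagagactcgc
Both strands were searched. Of 27025 promoters of this length, 951 (3.52%) hold the D-box and 2288 (8.47%) the STAT element. Of the 43 promoters matched among genes called lower, 3 hold the D-box, as do 2 of the 57 among genes called higher. A match describes the letters and does not show a bound site.

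The clock lists as a whole were mixed. Of 17 genes of the clock loop 2 were called (11.8%, against 1.12% of all genes), both lower, and the median was -0.29 with 5 positive. Nr1d1, a close relative of Nr1d2, averaged 72.2 ± 17.1 CPM in KPC (SD, n = 4) and 161 ± 61.6 CPM in controls (SD, n = 3) and was not called (adjusted p 0.1073 by edgeR). The activator Arntl and the repressor Cry1 had positive values (log2 0.38 and 0.49, not called). Of 18 clock output genes 1 was called, Dbp (5.56%, against 1.12% of all genes), and the median was -0.17.

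Metabolic genes gave single calls. Hk2, the hexokinase that traps glucose in the cell, was at 23.3, 32.9, 29.4 and 29.2 CPM in KPC and at 84.3, 56.3 and 62.6 CPM in controls. It fell by 1.24 ± 0.15 SE on the log2 scale (log2 -1.24, adjusted p 0.0032 by edgeR). It was the 1 call among 33 glycolysis and hypoxia genes (3.03%, against 1.12% of all genes), whose median was 0.06. Hsd17b7, an enzyme of cholesterol synthesis, was at 15.8, 19.3, 15.3 and 13.2 CPM in KPC and at 28.2, 42.9 and 33.9 CPM in controls (log2 -1.13 ± 0.17 SE, adjusted p 0.0070 by edgeR). The groups were separate for both genes.

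Of 25 genes of cholesterol synthesis and uptake, 23 were negative, with a median of -0.51. In 9 (36%, against 5.83% of all genes) every KPC library was below every control. Hsd17b7 was the 1 call (4%, against 1.12% of all genes). Sqle, which commits squalene to sterol synthesis, had a log2 fold change of -0.96 (adjusted p 0.1207 by edgeR) and Hmgcs1, an early enzyme of the pathway, of -0.76 (adjusted p 0.2309 by edgeR). Fatty acid oxidation, with a median of -0.02 over 20 genes, and oxidative phosphorylation, with 0.07 over 32, held 0 calls by edgeR, as did 26 adipogenic genes with a median of 0.14. DESeq2 called 1, 0 and 6 genes in these 3 lists and limma-voom 0, 0 and 2, and 1, 1 and 8 had an unadjusted p under 0.05.

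Other called genes that fell belong to no shared pathway of the lists. Plac8, a small cysteine-rich protein, was at 19.2, 19.4, 10.9 and 15.7 CPM in KPC and at 30.9, 41.0 and 47.5 CPM in controls (log2 -1.28 ± 0.20 SE, adjusted p 0.0094 by edgeR). Fem1a, which presents substrates to a ubiquitin ligase, averaged 33.2 ± 2.52 CPM in KPC (SD, n = 4) and 57.2 ± 6.73 CPM in controls (SD, n = 3). Ccnl1, a cyclin linked to splicing, averaged 126 ± 20.2 CPM in KPC (SD, n = 4) and 235 ± 37.7 CPM in controls (SD, n = 3). Fam71a was at most 0.937 CPM in KPC and at least 3.78 CPM in controls (log2 -3.06 ± 0.45 SE, adjusted p 0.0063 by edgeR).

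The log2 fold change of Fem1a was -0.78 (adjusted p 0.0073 by edgeR) and that of Ccnl1 was -0.90 (adjusted p 0.0080 by edgeR). Dnajb4, a heat-shock cochaperone, averaged 67.6 ± 7.91 CPM in KPC (SD, n = 4) and 100.3 ± 12.3 CPM in controls (SD, n = 3). It fell (log2 -0.57, adjusted p 0.0390 by edgeR) and was the 1 call among 23 heat-shock genes (4.35%, against 1.12% of all genes). Among the higher genes, Grrp1 was at 7.54, 7.96, 2.94 and 5.14 CPM in KPC and at 0.629, 0.343 and 0.267 CPM in controls (log2 3.796 ± 0.47 SE, adjusted p 0.0032 by edgeR). Ggta1, the enzyme that makes the alpha-gal sugar, was at 12.1, 12.4, 10.5 and 11.6 CPM in KPC and at 3.68, 4.19 and 2.77 CPM in controls (log2 1.72 ± 0.22 SE, adjusted p 0.0035 by edgeR).

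Tspan13, a tetraspanin, averaged 18.6 ± 3.49 CPM in KPC (SD, n = 4) and 6.39 ± 1.25 CPM in controls (SD, n = 3), a rise of 1.54 ± 0.21 SE on the log2 scale. Lmcd1, a LIM domain protein that binds GATA factors, averaged 6.04 ± 0.99 CPM in KPC (SD, n = 4) and 1.21 ± 0.23 CPM in controls (SD, n = 3), a rise of 2.30 ± 0.31 SE on the log2 scale. Both had an adjusted p of 0.0038 (edgeR). The groups were separate in each.

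Many lists tied to growth, stress and hormones held 0 calls by edgeR. These were the 28 immediate-early genes (median -0.21), 28 glucocorticoid response genes (-0.29), 28 genes of the unfolded protein and integrated stress response (0.13), 27 cell cycle genes (0.05), 23 p53 targets (-0.01) and 19 genes of the IGF axis (0.20). The same held for 41 ribosomal protein genes (-0.03), 32 ribosome biogenesis genes (-0.11), 28 Hox genes (0.09) and 29 genes of autophagy and FoxO-driven atrophy (-0.03). Egr3, an immediate-early factor, averaged 4.81 ± 0.97 CPM in KPC (SD, n = 4) and 37.6 ± 29.8 CPM in controls (SD, n = 3), and the spread among controls, at 34.2, 9.68 and 68.9 CPM, went with no call (adjusted p 0.1141 by edgeR). The 17 lists of states and pathways without a call by edgeR hold 460 tested genes together, of which 76 had an unadjusted p under 0.05, 28 were called by DESeq2 and 3 by limma-voom. Over all genes, 1904 had an unadjusted p under 0.05, and 29 of the 149 called genes belong to any list.

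**Figure D4:**
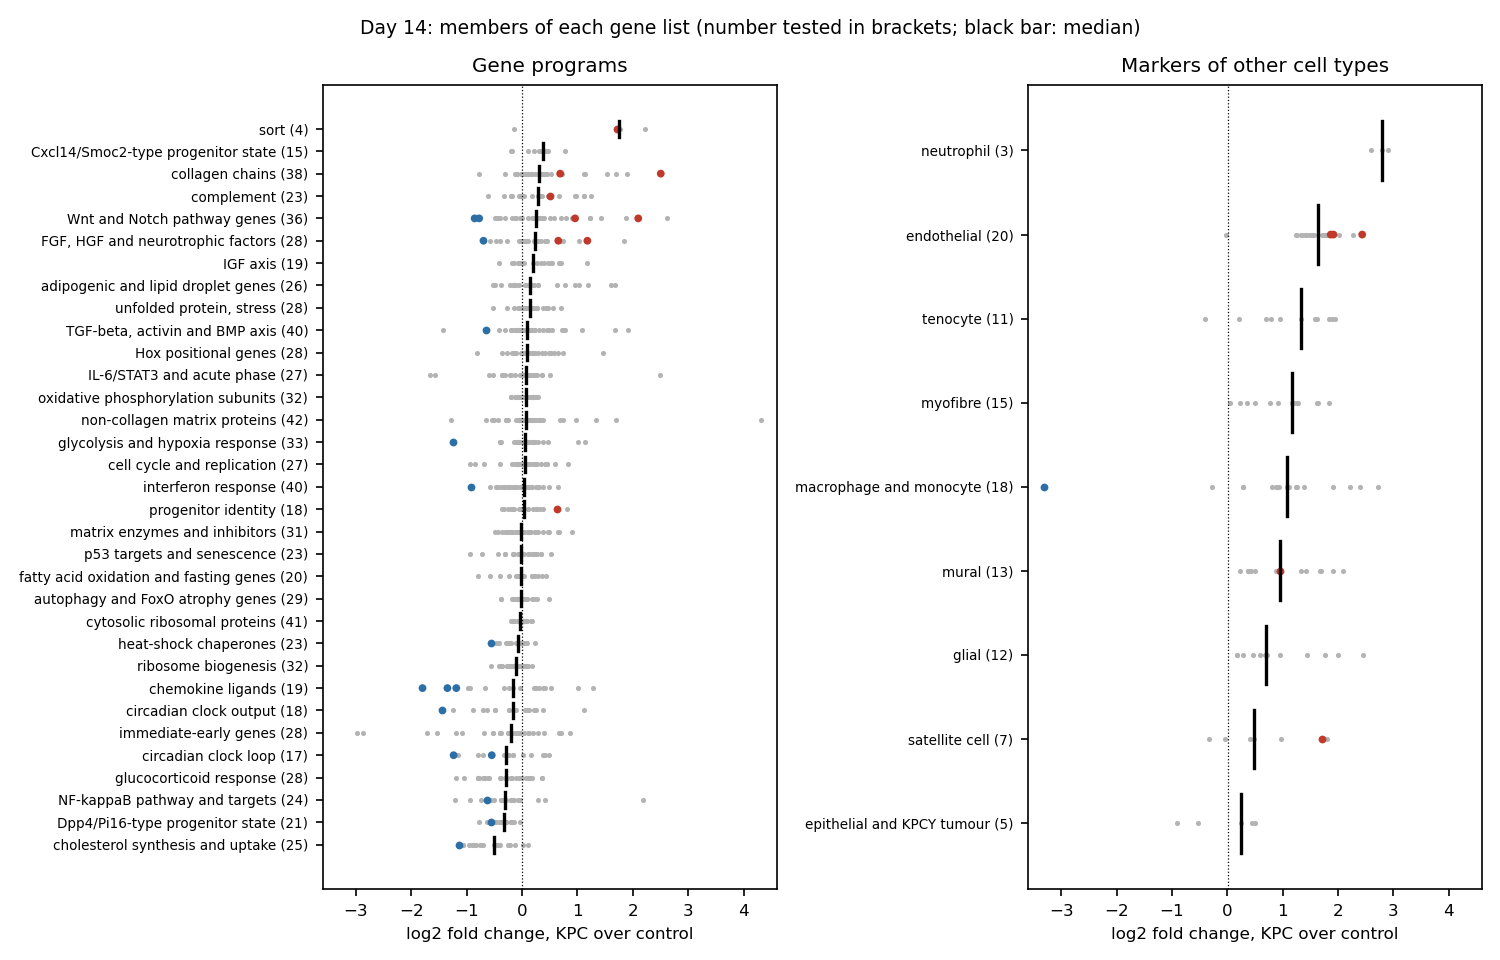
Log2 fold change of KPC over control at day 14 (horizontal axes) for the tested members of each gene list (rows, number tested in brackets). Grey points are genes not called, red points are called higher, blue points called lower, and black bars are medians. Programs are on the left, from the sort list at the top to cholesterol synthesis with a median of -0.51 at the bottom, and markers of other cell types are on the right, where the endothelial median is 1.63.

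Day 14 was set beside days 21 and 26 in a single fit of all 20 libraries, with the effect of each day taken against the controls of that day. This fit itself called 2 genes for the KPC effect at day 14, Fem1a and Plac8. Genes spoken of below as called at day 14 are those of the fit of day 14 alone. The KPC effect at day 14 differed from that at day 21 in 91 of 14141 genes (0.644%) and from that at day 26 in 2024 (14.3%), both by edgeR with Benjamini-Hochberg adjustment. Of the 148 genes called at day 14 that this fit holds, the difference was called for 14 (9.46%) at day 21 and for 45 (30.4%) at day 26. Since the genes were chosen for their day 14 values, these shares are a description. The count for day 26 rests on single libraries, being 466 without KPC day 26 replicate 2 and 5900 without KPC day 26 replicate 3.

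Egfl7, of the endothelial genes, was higher on average in KPC at each of the 3 days. It had log2 fold changes of 1.85 at day 14, 1.73 at day 21 and 1.57 at day 26 in this fit. None of these was called (adjusted p 0.5473, 0.1688 and 0.0673 by edgeR). The differences of day 14 from days 21 and 26 were 0.13 and 0.28 and were not called (adjusted p 0.9639 and 0.8532 by edgeR). Of the 90 genes called higher at day 14 and present in this fit, 73 were positive at day 21 and 64 at day 26. Of the 58 called lower at day 14, 24 were negative at day 21 and 25 at day 26, with 58.6% and 56.9% positive. Among all genes 51.9% were positive at day 21 and 49.9% at day 26, near the shares of the genes called lower. These genes were chosen for their day 14 values, so the signs are a description.

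Cxcl13 had the opposite sign at the later days. It had a log2 fold change of -1.20 at day 14, 3.04 at day 21 and 2.90 at day 26, and day 14 differed from day 21 by -4.24 (adjusted p 0.0268 by edgeR) and from day 26 by -4.10 (adjusted p 0.0093 by edgeR). The difference from day 21 was called in 11 of 20 alternatives. It was lost without control day 14 replicate 1 or 3, KPC day 14 replicate 2 or 3, any control of day 21 or KPC day 21 replicate 2, and with the replicate number as a block. That from day 26 was called in 20 of 21. On a scale common to all days, Cxcl13 was at 27.7 to 40.1 CPM in KPC at day 14, 107 to 265 CPM in KPC at day 21 and 45.6 to 674 CPM in KPC at day 26. In controls it was at 73.0 to 79.4 CPM at day 14, 18.7 to 23.4 CPM at day 21 and 39.3 to 73.5 CPM at day 26. Both the KPC and the control levels thus differed between days.

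Ccl2 had a log2 fold change of -1.82 at day 14, 0.10 at day 21 and 0.88 at day 26. The difference of day 14 from day 21 was -1.92 and not called (adjusted p 0.2353 by edgeR), and that from day 26 was -2.70 (adjusted p 0.0228 by edgeR). That from day 26 was called in 18 of 21 alternatives. It was not called without control day 14 replicate 1 (adjusted p 0.0604 by edgeR), with the replicate number as a block (adjusted p 0.1882 by edgeR) or in limma-voom (adjusted p 0.0523). Without KPC day 26 replicate 1 it was called at -1.22. The KPC libraries of day 14, at 11.5 to 19.1 CPM, lay where the day 21 libraries of both groups lay, with 13.9 to 16.6 CPM in KPC and 11.9 to 16.9 CPM in controls. The day 14 controls, at 45.6 to 74.9 CPM, overlapped the day 26 controls, at 44.7 to 62.3 CPM.

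Il6 and Ptx3 were set furthest from day 21 among the inflammatory genes named. Ptx3 had a log2 fold change of -1.59 at day 14 and 4.15 at day 21, a difference of -5.74 (adjusted p 9.3e-04 by edgeR). Its controls were at 136 to 149 CPM at day 14 and 7.68 to 10.2 CPM at day 21, and its KPC libraries at 21.6 to 80.5 CPM at day 14 and 153 to 180.2 CPM at day 21. For Il6 the difference was -5.73 (adjusted p 0.0142 by edgeR). It was not called without control day 21 replicate 1 or without control day 21 replicate 2.

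Clock genes differed between day 14 and day 26. Dbp had log2 fold changes of -1.45 at day 14, -1.51 at day 21 and 1.74 at day 26, and Nr1d2 of -1.25, 0.33 and 2.23 in the same order. The difference of day 14 from day 26 was -3.19 for Dbp (adjusted p 0.0044 by edgeR), -3.48 for Nr1d2 (adjusted p 0.0037) and -1.79 for Per3 (adjusted p 0.0060). Nr1d2 was at 39.4 to 62.0 CPM in KPC at day 14, below its day 14 controls at 101 to 159 CPM but above the day 26 controls at 10.2 to 35.5 CPM.

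Col16a1 and Hsd17b7 differed in how their values ran over the 3 days. In this fit the day 14 value of Col16a1 was not called (adjusted p 0.3377 by edgeR), unlike in the fit of day 14 alone. Col16a1 had log2 fold changes of 2.49 at day 14, 0.04 at day 21 and -0.92 at day 26, with a called difference from day 26 of 3.41 (adjusted p 0.0149 by edgeR) and an uncalled one from day 21 of 2.46 (adjusted p 0.1738 by edgeR). The difference from day 26 was called in 19 of 21 alternatives. It was 3.29 and not called without KPC day 26 replicate 2 (adjusted p 0.0593 by edgeR), and 3.67 and not called with the replicate number as a block (adjusted p 0.0770 by edgeR). Its day 14 controls, at 24.2 to 28.7 CPM, were below every control of the later days, which ran from 29.7 to 142 CPM at day 21 and from 127 to 252 CPM at day 26. The KPC libraries of day 14, at 121 to 187 CPM, were within the span of those later controls. Hsd17b7 had log2 fold changes of -1.15, -1.66 and -1.11 at days 14, 21 and 26. In this fit that of day 14 was not called (adjusted p 0.1703 by edgeR), and those of days 21 and 26 were (adjusted p 0.0015 and 0.0027 by edgeR). Neither difference of day 14 from a later day was called (adjusted p 0.4930 and 0.9540 by edgeR).

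**Figure D5:**
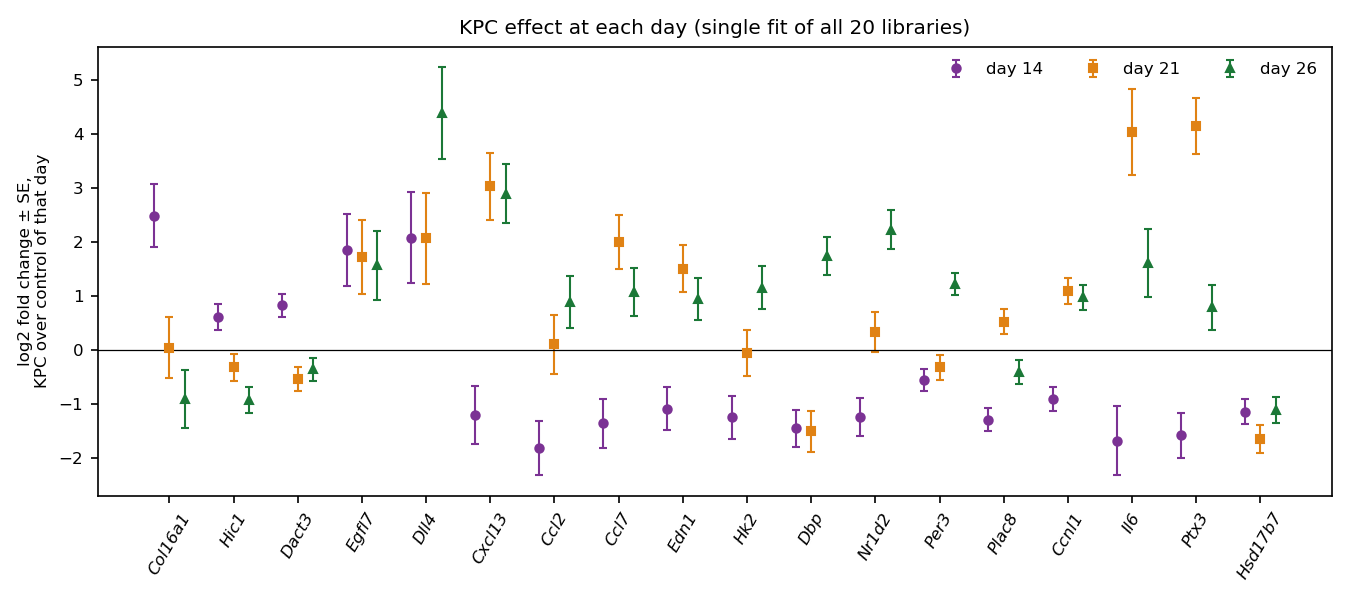
Log2 fold change of KPC over the control progenitors of the same day (vertical axis, ± SE) for 18 genes at day 14 (circles), day 21 (squares) and day 26 (triangles), from the single fit of all 20 libraries. Egfl7 and Hsd17b7 keep their sign at the 3 days, whereas Cxcl13 has -1.20 at day 14, 3.04 at day 21 and 2.90 at day 26.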

How the data were processed

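The deposited files are raw counts per gene symbol from the authors, with no normalization, per the labels and the whole numbers they hold. Named in the submitters' processing notes are the build mm10, R 4.2.1, STAR, Bowtie, bcl2fastq 2.20 and DESeq2 1.36.0. Their roles are not stated. The counting program, its use of strand and its gene models are likewise not given in the sources used, so reads of overlapping genes cannot be told apart. RNA whose integrity number was 7 or above was made into stranded mRNA libraries and read as pairs of 59 bases, per the labels' protocols. The day 14 table holds 24419 symbols, of which 25 had become calendar dates; these stayed in the fits and are never named.

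KPC and control libraries of day 14 were compared on the deposited counts with edgeR 4.0.16 in R 4.3.3: TMM scaling, filterByExpr (minimum count 10, minimum total 15), a robust quasi-likelihood fit, a 2-sided test and Benjamini-Hochberg adjustment over all genes tested. CPM uses the scaled library sizes, and SE is the absolute log2 fold change over the square root of F. Differences between days are contrasts in a fit of all 20 libraries. With limma 3.58.1 (voom) and DESeq2 1.42.0 the comparison was repeated, and the tests were checked on simulated counts, where a larger share of DESeq2's calls than of edgeR's was false.

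The comparison and the 33 program and 11 marker lists were chosen with earlier results of these data known, so a list describes and does not test. Genes named are the 12 higher and 12 lower called genes with the smallest p (mean log2 CPM of at least 1, no predicted symbol), up to 2 called members of each list, and Ly6a, Pdgfra, Pecam1, Ptprc, Itga7, Il6, Ptx3 and Col1a1. A few genes that these rules name are not reported here. Other list members that were not called, and genes said to be so, were named after their values were seen. Of the list symbols, 7 were matched by an older symbol and 7 had no match. Positions are from GENCODE vM21. Exons of 24 of the 149 called genes overlap those of another gene of the table, on the same or the other strand.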

Additional observations from a re-analysis of the deposited data

Results flagged for a closer look

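In Ccl7, 1 library stood apart from its group. KPC replicate 3 had 12.4 CPM, and its gap to the next KPC library was 0.962 of the group's range. KPC replicates are the only group of 4 at day 14, 47 genes were looked at in this way, and chance singles out about 1 in 20 groups. That library was also the shallowest, and the effect of depth here was not tested.

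For 12 named genes the KPC effect at day 14 differed from that at day 21 (edgeR contrast, Benjamini-Hochberg). The difference, day 14 minus day 21 on the log2 scale, was positive for Dact3 at 1.37 and Col12a1 at 1.31. It was negative for Ptx3 at -5.74, Il6 at -5.73, Cxcl13 at -4.24, Ccl7 at -3.37, Chrdl1 at -2.33, Ccnl1 at -2.01, Plac8 at -1.82 and Dnajb4 at -1.51. It was also negative for the low genes Fam71a at -7.96 and Cx3cr1 at -5.15. The adjusted p ran from 9.3e-04 for Chrdl1 and Ptx3 to 0.0477 for Col12a1. Ccnl1, Chrdl1, Dnajb4 and Ptx3 kept the call in each of the 20 alternatives run, and the other 8 lost it in at least 1.

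For 19 named genes the effect differed from that at day 26. The difference, day 14 minus day 26, was positive for Col16a1 at 3.41, Hic1 at 1.54 and Dact3 at 1.19. Chemokine and inflammatory genes had negative differences, with Cxcl13 at -4.10, Il6 at -3.30, Ccl2 at -2.70, Ccl7 at -2.44, Ptx3 at -2.37 and Birc3 at -1.26. So did the clock genes Nr1d2 at -3.48, Dbp at -3.19 and Per3 at -1.79. Figf was at -2.79, Hk2 at -2.41, Edn1 at -2.03, Ccnl1 at -1.88, Fem1a at -0.84 and Dnajb4 at -0.61, and the low gene Cx3cr1 was at -6.02. The adjusted p ran from 0.0037 for Nr1d2 to 0.0481 for Dnajb4. Without KPC day 26 replicate 3 all 19 remained called, with Col16a1 at 4.13 and Cxcl13 at -4.62, and 9 of the 19 kept the call in every alternative run. Without KPC day 26 replicate 1 the difference was -1.22 for Ccl2 and -1.59 for Hk2, both called, and -1.37 for Ccl7, which was not called.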

How the results depend on the processing

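The number of genes called at day 14, 149 (91 higher, 58 lower), moved by over 1.5 times under several alternatives. It was 278 (160 higher, 118 lower) with no filter on low counts and 600 (362 higher, 238 lower) in DESeq2. With the endothelial covariate it was 2 (1 higher, 1 lower), and with all 20 libraries in the fit it was also 2 (0 higher, 2 lower), namely Fem1a and Plac8. Where 1 library was left out it ran from 40 to 255, with 25 to 145 higher and 15 to 110 lower. Without control replicate 2 the share of higher genes was 46.3%, against 61.1%, with 101 lower genes. No label says that replicate numbers pair the libraries. Deviations of same-numbered libraries correlated at -0.115, -0.0517 and -0.101, which with so few libraries cannot exclude a pairing. A fit with the replicate number as a block called 361 (218 higher, 143 lower), of which 139 were among the 149. With DESeq2 size factors in edgeR the number was 141, by library size alone 149, under a filter of at least 50 counts in 3 libraries 153 and in limma-voom 102.

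The day 21 difference, 91 genes, was 391 in DESeq2 and 24 to 162 where 1 library was left out. The day 26 difference, 2024 genes, was 829 with the replicate block and 466 to 5900 where 1 library was left out.

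For named genes at day 14, 578 checks kept direction and call, 157 lost the call, 9 gained it and 6 reversed, the cause of which was not tested. The reversed values belong to genes that were not called. With the endothelial covariate Ly6a was at 0.0743, Ptprc at -0.86 and Col1a1 at -0.29. Col1a1 was at below 0 without KPC replicate 1, without KPC replicate 3 and without control replicate 3, and over the 7 fits that leave out 1 library it ran from -0.0614 to 0.152. At a depth of 12.9 M counts, genes below about 1 CPM rest on few reads, and their folds are uncertain.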

Other observations

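Further genes called at day 14 were chosen after their values were seen. None of those named in this section was called in all 7 fits that leave out 1 library. Kdm6b and Kdm7a, demethylases of histone H3, were lower. Kdm6b averaged 83.9 ± 14.7 CPM in KPC (SD, n = 4) and 134 ± 11.9 CPM in controls (SD, n = 3), with a log2 fold change of -0.68 (adjusted p 0.0301 by edgeR). Kdm7a averaged 60.3 ± 14.7 CPM in KPC (SD, n = 4) and 124 ± 24.04 CPM in controls (SD, n = 3), with a log2 fold change of -1.05 (adjusted p 0.0301 by edgeR). Zc3h12a, an RNase that degrades cytokine transcripts, fell to 25.4 ± 5.04 CPM in KPC, against 43.8 ± 7.78 CPM in controls (adjusted p 0.0350 by edgeR). The receptor chains Il17ra, for interleukin 17, and Il1rl2, for interleukin 36, had log2 fold changes of -0.51 each.

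Matrix genes outside the fibril collagens were also called. Mgp, an inhibitor of calcification, averaged 787.5 ± 119 CPM in KPC (SD, n = 4) and 495 ± 93.7 CPM in controls (SD, n = 3), with a log2 fold change of 0.67 (adjusted p 0.0476 by edgeR). Vtn, which encodes vitronectin, and Matn2, a matrilin, rose with log2 fold changes of 0.65 and 0.56. Procr, the receptor of protein C, had a log2 fold change of -0.53, and Mdk, a heparin-binding growth factor, of 0.65. Ptprc, Pecam1 and most endothelial markers had higher means in the same KPC libraries, and their part in these values was not tested.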
